A study of Mus musculus with 18 samples.

Results

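Notch signalling is read here through 10 genes of the mouse embryonic lung, namely the ligands *Jag1*, *Jag2*, *Dll1* and *Dll4*, the receptors *Notch1*, *Notch2* and *Notch3*, and the target genes *Hes1*, *Hey1* and *Heyl*. They were chosen by name, with earlier results of these data known, from the 23420 genes listed in each of 3 expression tables. Every one of the 10 was found once in each table and passed the filter on low values in each. Each table holds RNA sequencing of whole lungs, with 3 control and 3 mutant libraries, so the series has 18 libraries in 6 groups. The study asked how noncanonical *Wnt* signaling through *Wnt5a* and *Vangl1/2* places and directs lung branches.

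The first table, called the *Vangl1/2* experiment, compares lungs at embryonic day E12.5, counted in days post coitus (dpc). Its controls are labelled *Vangl1*-/- and its mutants *Vangl1*-/-; *Vangl2*-/-, so that both groups carry the *Vangl1* allele, a gene trap. The study made the *Vangl2* null allele by recombining a floxed one with *Sox2*-Cre, which acts early and throughout the embryo. In the *Dermo1*-Cre experiment, also at E12.5, controls were *Wnt5a* f/+; *Dermo1*Cre and mutants *Wnt5a* f/f; *Dermo1*Cre, with a Cre that is active in the mesenchyme. In the *Sox9*-Cre experiment, at E13.5, controls were *Wnt5a* f/+; *Sox9*Cre and mutants *Wnt5a* f/f; *Sox9*Cre, with a Cre that acts in the epithelium. All libraries of both *Wnt5a* experiments, controls included, thus carry the Cre and at least 1 floxed allele. The sources used here do not say how many embryos made up a library or whether libraries came from separate litters, so the p-values below measure only the spread between these samples.

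In Notch signalling, a ligand of the Jagged or Delta-like family on one cell binds a Notch receptor on its neighbour. The receptor is then cut by an ADAM protease and by gamma-secretase, and its intracellular part enters the nucleus, where it joins the DNA-binding protein RBPJ and Mastermind-like coactivators and turns on genes of the *Hes* and *Hey* families. In the developing lung the pathway is known for the choice between neuroendocrine and other airway cells, in which HES1 takes part, and for the growth of vessels and of the vascular smooth muscle around them, in which *Dll4*, *Notch1*, *Jag1*, *Notch3* and *Heyl* take part.

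Between 15945393 and 19814346 reads per library were assigned to genes. Values are normalized counts, which are reads divided by a size factor of the library (0.952 to 1.07). Differences are log2 fold changes of mutant over control on the scale log2(normalized count + 1), with the standard error (SE) and the Benjamini-Hochberg adjusted p of limma over all genes tested, and a gene is called to have changed where that adjusted p is under 0.05. Summed markers of lung epithelium (19402 to 23252 normalized counts) and of lung mesenchyme (14888 to 20014) were high in every library, and no marker on these lists was at 0. *Vangl2* fell by 1.96 (SE 0.17, adjusted p = 0.0318) in the *Vangl1/2* mutants, from 277 to 406 normalized counts in controls to 79.8 to 89.6. *Vangl1* was still counted there, at 113 to 219 in controls and 238 to 274 in mutants. *Wnt5a* differed by −0.55 (SE 0.19, adjusted p = 0.406) in the *Dermo1*-Cre experiment, where the library labelled mutant 2, at 435.7, lay among controls of 430 to 489, and by −0.12 (SE 0.097, adjusted p = 0.9999) in the *Sox9*-Cre experiment. Some libraries did not lie with their group before any gene was compared. On the first principal component of the *Vangl1/2* experiment (51.7% of the variance), controls 1 and 3 lay at −30.1 and −44.7. Control 2, at 17.0, lay among the mutants at 15.1 to 21.5. Results of that experiment are therefore given below with and without these libraries. On the first component of the *Sox9*-Cre experiment (43.6%), mutant 1, at −18.5, lay among the controls at −19.5 to −5.42. Mutants 2 and 3 lay at 18.8 and 35.7 there. In the *Dermo1*-Cre experiment the mutants lay within the range of the controls.

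The target *Hes1* was the most abundant of the 10 genes per kilobase of exon, and the ligand *Dll1* the least. On this scale (normalized counts divided by the gene's exon length in kilobases), *Hes1* stood at 674 ± 55.7 (SD, n = 3) in *Vangl1/2* controls, 587 ± 2.12 in those of the *Dermo1*-Cre and 602 ± 46.1 in those of the *Sox9*-Cre experiment. No other gene's control libraries overlapped with those of *Hes1*. The receptors followed, with *Notch3* at 283 ± 14.7 and *Notch2* at 276 ± 11.9 per kilobase in the *Dermo1*-Cre controls, a pair whose libraries overlapped there, and *Notch1* at 159 ± 3.55. In the *Sox9*-Cre controls the order *Notch3* (290 ± 18.9), *Notch2* (263 ± 6.61) and *Notch1* (179 ± 6.98) held without overlap. *Heyl* (164 ± 23.2 per kilobase in the *Dermo1*-Cre controls) overlapped with *Notch1* there and was followed by *Hey1* (116 ± 16.9), then by the ligands *Jag1* (96.0 ± 10.6), *Dll4* (63.3 ± 3.60) and *Jag2* (58.2 ± 2.24), and last *Dll1* (22.6 ± 3.69). *Dll4* and *Jag2* could not be separated in any of the 3 control groups, whereas *Dll1* lay below every other gene in all 3. In the *Vangl1/2* controls, every neighbouring pair from *Notch3* down to *Jag2* overlapped, and the SD of the receptors was larger there (93.4, 99.6 and 43.2 per kilobase for *Notch3*, *Notch2* and *Notch1*).

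**Figure D1:**
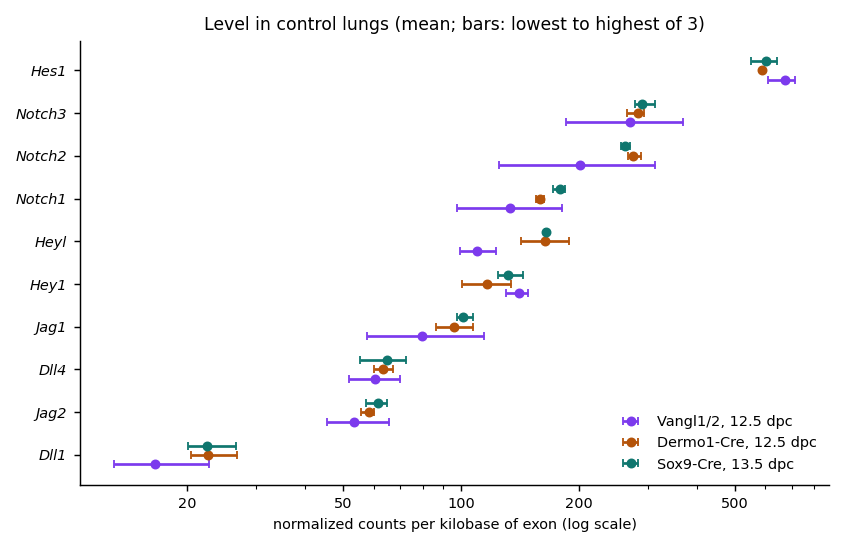
Level of each gene in control lungs, in normalized counts per kilobase of exon on a log scale. Points are means of 3 libraries and bars run from the lowest to the highest library of the *Vangl1/2* (purple), *Dermo1*-Cre (brown) and *Sox9*-Cre (green) experiments. *Hes1* lies to the right of all other genes and *Dll1* to the left, and the bars of the receptors are widest in the *Vangl1/2* controls.

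In the *Vangl1/2* experiment, the 3 receptors had higher mean counts and the 3 targets lower mean counts in mutants than in controls, while the 4 ligands lay close to 0 on the log2 scale. None of the 10 passed the test with limma, where 0.00699% of the 14303 genes tested did, and none passed with edgeR or DESeq2. At an unadjusted p under 0.05, *Notch2* and *Notch3* were higher, where 12% of all genes were, and *Hes1* was lower, where 8.56% were. The mutant libraries lay above every control for *Notch2* and *Notch3* (13.6% of all genes) and below every control for *Hes1* (8.68%). With 3 libraries against 3, an exact permutation test of a single gene cannot give a two-sided p under 0.1, which is what such a separation gives. Since whole lungs were sequenced, fewer cells of a type and less RNA per cell cannot be told apart in any of these values. The median of the 10 log2 fold changes was 0.076 beside −0.0093 over all genes tested, but −0.0015 with the trend on exon length removed, which is described below, and between −0.0243 (without control 3) and 0.282 (without control 2) with 1 library left out. Summed markers of lung mesenchyme were higher in the mutants without overlap (19424 to 20014 normalized counts, controls 16371 to 18119, log2 ratio 0.204), and their part in the values of the receptors was not tested.

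Of the receptors, *Notch2* (chr3:98013527-98150361, plus strand, build GRCm38), which in the lung is expressed in epithelium and mesenchyme alike, had 1724, 3292 and 1310 normalized counts in *Vangl1/2* controls 1 to 3 and 3404, 3626 and 3824 in mutants 1 to 3. Every mutant was above every control, but control 2 came within a short distance of mutant 1. The log2 fold change was 0.89 (SE 0.29, 95% interval 0.22 to 1.56, adjusted p = 0.233 from limma). *Notch3* (chr17:32120820-32166852, minus strand), the receptor of vascular smooth muscle and pericytes, had 2038, 2966 and 1484 in controls and 3154, 3052 and 2981 in mutants. Control 2 again lay just below the mutants, with a log2 fold change of 0.56 (SE 0.22, 95% interval 0.057 to 1.06, adjusted p = 0.235). *Notch1* (chr2:26457903-26516663, minus strand), which endothelial cells use with *Dll4*, had 1153, 1721 and 925.9 in controls and 1499, 1663 and 1830 in mutants. Its groups overlapped through control 2, and the log2 fold change was 0.44 (SE 0.21, 95% interval −0.044 to 0.92, adjusted p = 0.265).

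The receptors are also the longest of the 10 genes, with 8016 to 10500 bases of exon, and in this experiment the log2 fold change of all genes went with exon length (Spearman correlation 0.702 across 14185 genes, which are not independent replicates, against 0.254 in the *Dermo1*-Cre and −0.0315 in the *Sox9*-Cre experiment). After the trend on exon length had been taken out of each library, the log2 fold changes were 0.43 for *Notch2*, 0.19 for *Notch3* and 0.014 for *Notch1*, with adjusted p-values of 0.559, 0.644 and 0.971 from limma. Of the short targets, *Hes1* (1468 bases) then stood at −0.017 and *Hey1* (2423 bases) at −0.11, whereas *Heyl* (4537 bases) went from −0.23 to −0.36. The length-related part of a difference and any biological part cannot be told apart from these values alone.

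**Figure D2:**
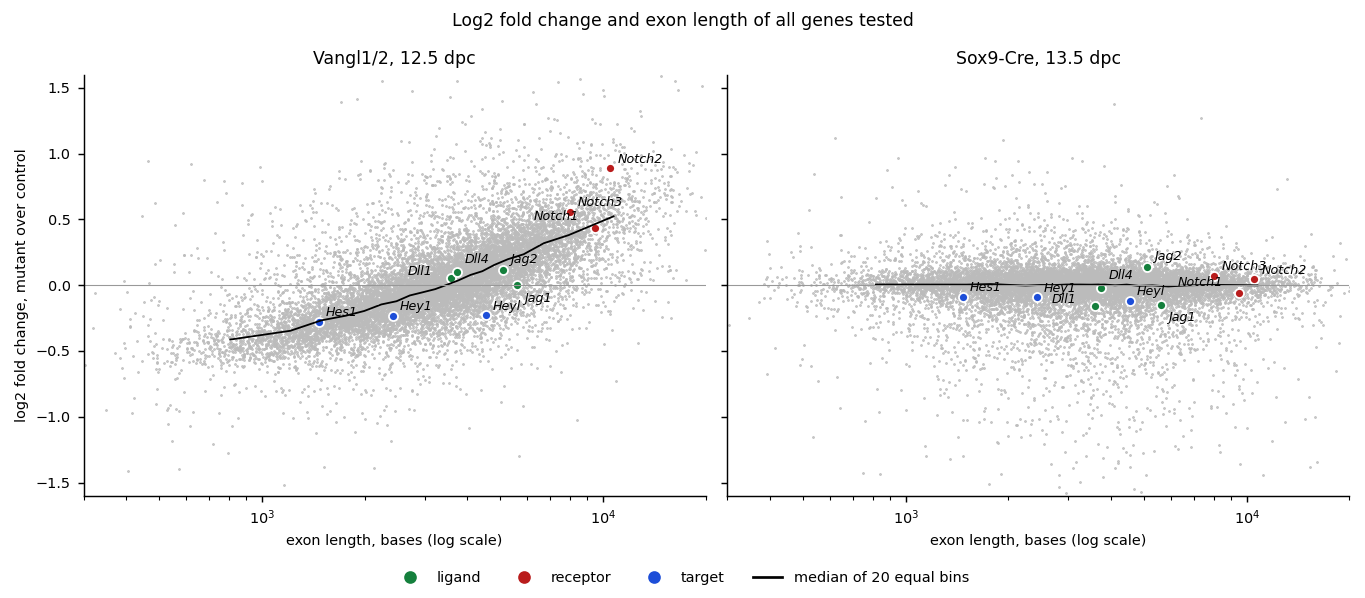
Log2 fold change of mutant over control against exon length (log scale) for all genes tested in the *Vangl1/2* experiment (left) and, for comparison, the *Sox9*-Cre experiment (right). Grey points are genes, coloured points the ligands (green), receptors (red) and targets (blue), and the black line joins medians of 20 equally filled length bins; genes outside the axis limits are not drawn. The line climbs with length on the left, where *Notch2* (0.89) lies above it and *Heyl* (−0.23) and *Jag1* (−0.0012) below, and is flat on the right.

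The result for the receptors rested on which libraries were used. With all 18 libraries of the series in 1 fit, the 3 receptors passed the test (adjusted p = 0.022 to 0.0389 from limma), as did 23.1% of all genes tested. Without control 2, *Notch2* (log2 fold change 1.27, SE 0.11, adjusted p = 5.9e-05), *Notch3* (0.82, SE 0.11, adjusted p = 0.000383) and *Notch1* (0.68, SE 0.11, adjusted p = 0.000864) passed the test with limma as higher and *Hes1* (−0.35, SE 0.081, adjusted p = 0.00625) as lower, so 4 of the 10 were called. In that fit 43.6% of all genes tested were called, a share near that of the members. With control 2 as the only control, taken to vary like the mutants, an alternative added after the data were seen, none was called, where 0.00709% of all genes were, and the receptors were at −0.053 (*Notch1*), 0.13 (*Notch2*) and 0.046 (*Notch3*). Without control 2 and with the length trend removed, also added afterwards, *Notch2* alone was called (0.61, SE 0.088, adjusted p = 0.00218), where 14.7% of all genes were, and *Hes1* stood at 0.014. Which of the controls represents the genotype cannot be told from the labels.

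The ligands of the *Vangl1/2* experiment overlapped between the groups in each case. *Jag1* (chr2:137081456-137116644, minus strand), a ligand of developing smooth muscle and vessels, had 377, 642 and 323 normalized counts in controls and 447, 426 and 410 in mutants, so that control 2 was the highest library and the mutants lay between the controls. Its log2 fold change was −0.0012 (SE 0.23, 95% interval −0.54 to 0.53). *Jag2* (chr12:112907819-112929776, minus strand), another Jagged ligand, was at 0.12 (SE 0.15, 95% interval −0.24 to 0.47). *Dll4* (chr2:119325784-119335962, plus strand), the ligand of arterial endothelium and sprouting vessels, was at 0.099 (SE 0.14, 95% interval −0.22 to 0.42), and *Dll1* (chr17:15367354-15376872, minus strand), a Delta-like ligand found in neuroendocrine cells, at 0.052 (SE 0.24, 95% interval −0.51 to 0.61). At between 46.5 and 81.1 normalized counts, *Dll1* was the least deeply counted gene.

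All 3 targets had log2 fold changes below 0 in the *Vangl1/2* experiment. *Hes1* (chr16:30064384-30067796, plus strand), a repressor that holds back neuroendocrine and neuronal fate, had 1022, 896.5 and 1050 in controls and 766.9, 836.6 and 842.9 in mutants. All mutants lay below all controls, with a log2 fold change of −0.28 (SE 0.10, 95% interval −0.51 to −0.041, adjusted p = 0.233 from limma). *Hey1* (chr3:8663359-8667256, minus strand), a repressor of arterial and other vascular cells, had 359, 315 and 350.0 in controls and 278, 351 and 250.1 in mutants, with mutant 2 above control 3 (−0.23, SE 0.15, adjusted p = 0.361). *Heyl* (chr4:123233556-123249875, plus strand), a target of NOTCH3 in mural cells, had 451, 487 and 558 in controls and 396, 385 and 501 in mutants, with mutant 3 within the controls (−0.23, SE 0.14, adjusted p = 0.349).

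**Figure D3:**
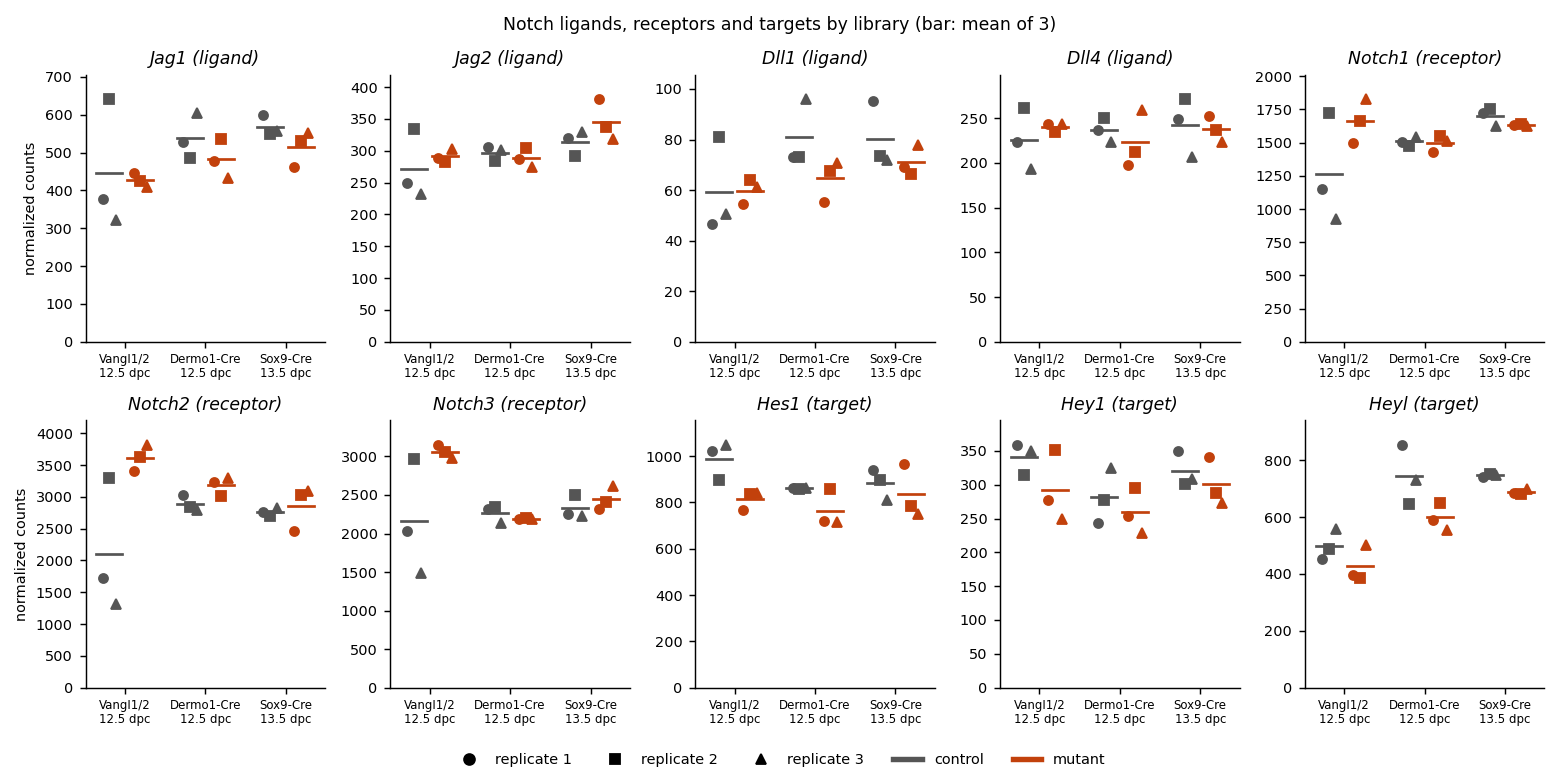
Normalized counts of the 10 genes in all 18 libraries. Each point is a library (grey, control; orange, mutant; the shape gives the replicate number) and each bar the mean of 3; axes start at 0. *Notch2* and *Notch3* of the *Vangl1/2* experiment show control 2 (3292 and 2966) beside the mutants and controls 1 and 3 well below, while *Heyl* of the *Sox9*-Cre experiment shows tight groups (742 to 752 and 682 to 700.1).

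In the *Dermo1*-Cre experiment, where *Wnt5a* is deleted in the mesenchyme, 9 of the 10 genes had a log2 fold change below 0 and *Notch2* alone was above 0. None passed the test with limma (0.014% of the 14277 genes tested did), edgeR or DESeq2. At an unadjusted p under 0.05, *Heyl* and *Hes1* were lower, where 4.76% of all genes were, and *Notch2* was higher, where 5.42% were. The groups did not overlap for 1 gene, *Dll1*, whose mutants were all lower, as were those of 7.92% of all genes, and none had all mutants higher, as 7.65% of all genes did. The median over the 10 genes was −0.11 beside 0.00071 over all genes tested. Summed markers of lung epithelium were lower in these mutants without overlap (19402 to 20012 normalized counts, controls 20567 to 22189, log2 ratio −0.11), and their part in the members' values was not tested.

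*Heyl* had the smallest adjusted p of the 10 in this experiment. It had 855, 645 and 729 normalized counts in controls and 591, 650.0 and 555 in mutants. Mutant 2, the library whose *Wnt5a* lay among the controls, was also the highest mutant for *Heyl* and lay just above control 2. The log2 fold change was −0.30 (SE 0.10, 95% interval −0.53 to −0.079, adjusted p = 0.386 from limma), and −0.34 with the length trend removed. *Hes1* had 863, 858 and 864 in controls, a spread of 3.11 (SD), and 720.0, 859 and 716 in mutants. Mutant 2 again lay with the controls while mutants 1 and 3 were below them all, and the log2 fold change was −0.18 (SE 0.073, 95% interval −0.34 to −0.013, adjusted p = 0.473). For *Hey1* the same library was the highest mutant as well, at 296 against 253 and 229, among controls of 243 to 325 (−0.12, SE 0.13, adjusted p = 0.769). This was not particular to the targets. Mutant 2 was also the highest mutant for *Jag1*, *Jag2*, *Notch1* and *Notch3*, though not for *Dll1*, *Dll4* or *Notch2*. Its summed smooth muscle markers (14419) lay among those of the controls too, above mutants 1 (9065) and 3 (9313). Whether the amount of *Wnt5a* left has a part in these values was not tested.

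The ligand *Dll1* had 73.2, 73.3 and 96.1 normalized counts in *Dermo1*-Cre controls and 55.5, 67.5 and 70.9 in mutants. All mutants lay below all controls, by a small margin, and the difference of −0.31 (SE 0.17, 95% interval −0.70 to 0.076) had an adjusted p of 0.566 from limma. *Jag1* was at −0.16 (SE 0.099, 95% interval −0.38 to 0.066), *Dll4* at −0.095 (SE 0.11) and *Jag2* at −0.042 (SE 0.079), with adjusted p-values of 0.616 to 0.881 and overlapping groups. Among the receptors, *Notch2* had 3036, 2847 and 2801 in controls and 3233, 3017 and 3304 in mutants, with mutant 2 just below control 1 (0.14, SE 0.049, 95% interval 0.027 to 0.25, adjusted p = 0.419), and stood at 0.032 with the length trend removed. *Notch3* and *Notch1* had the smallest standard errors of the 10 (0.046 and 0.047), with intervals of −0.12 to 0.092 for *Notch1* and −0.15 to 0.059 for *Notch3*.

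In the *Sox9*-Cre experiment, where *Wnt5a* is deleted in the epithelium, the differences of the 10 genes were small, between −0.16 and 0.14 on the log2 scale. None passed the test with limma, where 0% of the 14293 genes tested did, and none with edgeR or DESeq2. None was under an unadjusted p of 0.05 in either direction, where 1.08% of all genes were higher and 2.81% lower. The groups did not overlap for 1 gene, *Heyl*, whose mutants were lower, as for 4.36% of all genes, and no member had all mutants higher (4.42%). The median was −0.073 beside 0.0013 over all genes tested.

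*Heyl* had 742, 752 and 749 normalized counts in *Sox9*-Cre controls and 685, 682 and 700.1 in mutants. Both groups were tight and did not overlap, with a log2 fold change of −0.12 (SE 0.054, 95% interval −0.24 to 0.0050, adjusted p = 0.9999 from limma). *Hes1* (−0.087, SE 0.10) and *Hey1* (−0.091, SE 0.11) were also below 0, with overlapping groups: mutant 1 had the most *Hes1* of the 6 libraries (967) and mutants 2 and 3 the least (786 and 751). The receptors were at −0.058 (*Notch1*, SE 0.050), 0.043 (*Notch2*, SE 0.085) and 0.072 (*Notch3*, SE 0.066). Of the ligands, *Jag2* was at 0.14 (SE 0.094), *Jag1* at −0.15 (SE 0.084), *Dll1* at −0.16 (SE 0.16) and *Dll4* at −0.019 (SE 0.12). The intervals of the 3 receptors ended at 0.057, 0.24 and 0.22. The value of 0.89 for *Notch2* in the *Vangl1/2* mutants lay outside them. Its own interval of 0.22 to 1.56, however, met that of *Notch2* here, and it was 0.43 with the length trend removed.

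**Figure D4:**
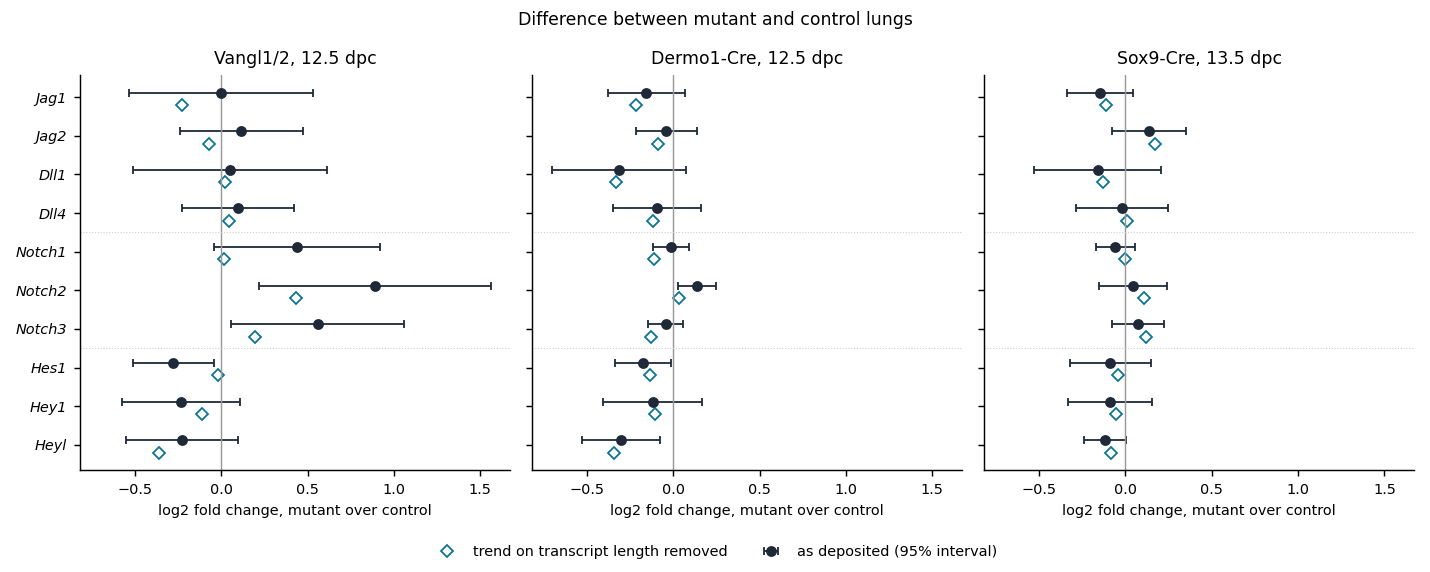
Log2 fold change of mutant over control for the 10 genes in each experiment. Filled points with bars are the values with 95% intervals from limma, and open diamonds the values after each library's trend on transcript length was removed. The receptors of the *Vangl1/2* experiment lie to the right of 0 (0.44 to 0.89) and move towards it when the trend is removed (0.014 to 0.43), and *Hes1*, *Hey1* and *Heyl* lie to the left of 0 in each panel.

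The experiments were then set against each other directly, with the length trend left in. The largest differences of the 10 genes in both pairs with the *Vangl1/2* experiment were those of the receptors, and none passed the test. The log2 fold change of *Notch2* was 0.75 (SE 0.29) higher in the *Vangl1/2* than in the *Dermo1*-Cre experiment and 0.85 (SE 0.29) higher than in the *Sox9*-Cre experiment, with adjusted p-values of 0.252 and 0.157 from limma over 13980 genes. For *Notch3* these differences were 0.60 and 0.49 (SE 0.22 each; adjusted p = 0.252 and 0.184), and for *Notch1* 0.45 and 0.50 (SE 0.20 each; adjusted p = 0.277 and 0.165). No member passed in any of the 3 pairs of experiments, where 0.0143%, 0.0143% and 0% of all genes did. The 3 receptors and no other member had an unadjusted p under 0.05 in both of these pairs, where 17.3% and 25.1% of all genes had one. Without control 2, the 3 receptors and *Jag1* passed in both pairs, *Notch2* by 1.13 and 1.22 (SE 0.14 each) and *Jag1* by 0.45 and 0.44 (SE 0.15 each; adjusted p = 0.0267 and 0.0248), in a fit that called 32.8% and 39.3% of all genes. The 2 *Wnt5a* experiments differed by between −0.19 and 0.095 for the 10 genes, none at an unadjusted p under 0.05 (2.63% of all genes). The receptors did not all stay in front once the length trend was removed from each experiment. *Notch1* was then at 0.014 in the *Vangl1/2* and −0.00035 in the *Sox9*-Cre experiment, and *Notch3* at 0.19 and 0.12. *Notch2* was at 0.43 and 0.11, while *Heyl* was at −0.36 and −0.086, further apart than *Notch1* or *Notch3*. Genotype, stage, Cre and length trend cannot be told apart in a contrast between experiments.

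The targets shared a direction over the 3 experiments, which use different libraries. *Hes1*, *Hey1* and *Heyl* were below 0 in all 3, as were 14.8% of all genes tested in each (9.36% with the length trend removed), and *Jag1* was the other member of which this held. *Notch2* was above 0 in all 3, where 15.7% of all genes were. Of the other targets on the pathway list, *Hes6*, *Hey2* and *Nrarp* (a feedback inhibitor of the receptor) were also tested. These 3 were below 0 in each experiment as well, so that 18 of 18 log2 fold changes were below 0, and 17 of 18 with the length trend removed, the exception being *Hes6* at 0.012 in the *Sox9*-Cre experiment. Without *Hes6*, 15 of 15 were below 0 both ways. None of the 18 passed the test, and this count was made after the values were seen. By size, they ran from −0.029 (*Hes6*, *Sox9*-Cre) to −0.46 (*Hes6*, *Vangl1/2*). *Hes6*, an antagonist of HES1 that is usually placed downstream of proneural factors rather than of Notch, had 538, 421 and 543 normalized counts in *Vangl1/2* controls and 353, 359 and 372 in mutants, without overlap (−0.46, SE 0.13, adjusted p = 0.233 from limma; −0.18 with the length trend removed). *Hey2*, a target of the arterial endothelium and the heart, was lowest relative to controls in the *Sox9*-Cre experiment (−0.39, SE 0.16, adjusted p = 0.9999), with overlapping groups. Cardiomyocyte markers were lower there too, without overlap, as given below.

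**Figure D5:**
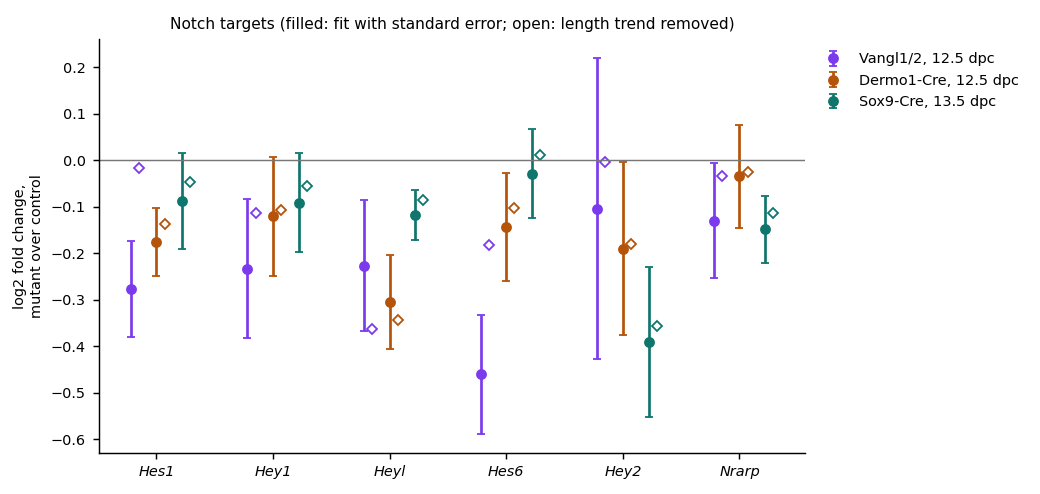
Log2 fold change of mutant over control for 6 genes listed as Notch targets, in the *Vangl1/2* (purple), *Dermo1*-Cre (brown) and *Sox9*-Cre (green) experiments. Of these, *Hes6* is usually placed downstream of proneural factors rather than of Notch. Filled points with bars are the fitted values with their standard errors and open diamonds the values with the trend on transcript length removed. All 18 filled points lie below the line at 0, and 17 of the 18 diamonds.

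Targets are recognised by RBPJ through a short core, written GTGGGAA here, which was searched on both strands in windows of 250 bases before to 50 bases after the start of each gene (RefSeq, build GRCm38.p6). The core was in 6.38% of the 32851 windows. Of the members, 7 had a window, and *Hes1*, *Hey1* and *Heyl* were not among them. None of the 8 windows of *Jag1*, *Jag2*, *Dll1*, *Dll4*, *Notch1*, *Notch2* and *Notch3* held the core, nor its shorter form TGGGAA, which overlaps it and was in 25.6% of all windows. The N box CACNAG, to which HES repressors bind, was in 42.5% of all windows and in those of 5 members, *Dll1*, *Dll4*, *Notch1*, *Notch2* and *Notch3*. The other targets were searched after this was seen: the core was in *Hes5*, *Hes7* and *Hey2* and not in *Hes6* or *Nrarp*. *Hey2* is shown because it was the one of the 3 that was tested for expression. Like *Hes5*, it holds the core once on each strand. Its matches are written 5′ to 3′ in the direction of the gene (minus strand of chr10), with the core or its reverse complement in capitals. They lie at chr10:30842973-30843001 and chr10:30842770-30842798.
Hey2, upstream match: gcgcggtggcaTTCCCACgcctctgccaa
Hey2, match at the start: tgggctgcagcGTGGGAAagaacctccag
These matches describe letters in the window and are not evidence of binding.

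No other gene of the pathway passed the test either. Of 53 other Notch pathway genes listed, 49 were counted deeply enough to be tested in the *Vangl1/2* experiment, 50 in the *Dermo1*-Cre and 51 in the *Sox9*-Cre experiment, and none passed the test with limma, edgeR or DESeq2. *Hes5* and *Hes7* were below the filter in all 3. At an unadjusted p under 0.05, 11 were higher and 1 lower in the *Vangl1/2* experiment, where 12% of all genes were higher and 8.56% lower. With deletion by *Dermo1*-Cre, 1 was higher and 4 lower (5.42% and 4.76% of all genes), and in the *Sox9*-Cre experiment 0 were higher and 4 lower (1.08% and 2.81%). The medians were 0.11, −0.014 and −0.0084, and 0.029, −0.054 and 0.027 with the length trend removed.

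By role, the 13 genes of the nuclear complex and its corepressors had a median of 0.41 in the *Vangl1/2* experiment, with 9 above 0 and 7 of these at an unadjusted p under 0.05, where 12% of all genes were higher. With the length trend removed that median was 0.072. *Spen*, a corepressor that binds RBPJ, had 1164, 2063 and 708 normalized counts in controls and 2502, 2392 and 2103 in mutants. Control 2 again came close to the mutants, and the log2 fold change was 0.96 (SE 0.33, adjusted p = 0.233 from limma; 0.46 with the length trend removed). *Mib1*, the ubiquitin ligase that ligands need to signal, had 475, 790.3 and 657 in controls and 961, 1002 and 1261 in mutants (0.77, SE 0.19, adjusted p = 0.233; 0.32 with the trend removed). The median was 0.16 for the 10 proteases that cut the receptor (0.084 with the trend removed) and 0.19 for the 9 turnover genes and inhibitors (0.033). It was 0.010 for the 6 enzymes that glycosylate receptors (−0.053), 0.066 for the 4 genes of ligand ubiquitination (−0.11) and 0.20 for the receptors and ligands outside the 10 members (−0.087). Without control 2, 24 of the 49 pathway genes tested passed, where 43.6% of all genes did, and 6 of 49 with the length trend removed in addition, where 14.7% did.

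In the *Dermo1*-Cre experiment, *Dner*, a transmembrane Notch ligand of neurons, was the pathway gene with the largest difference, with 17.0, 18.1 and 21.8 normalized counts in controls and 32.3, 66.5 and 50.9 in mutants (1.30, SE 0.29, adjusted p = 0.198 from limma). All mutants lay above all controls. The 9 neuronal markers, summed, moved with it, from 519 to 891 in controls to 1122 to 2538 in mutants, all 9 with log2 fold changes above 0, and their part in the *Dner* result was not tested. *Furin*, the protease that cleaves receptors on their way to the surface, had 1484, 1503 and 1569 in controls and 1253, 1456 and 1347 in mutants (−0.17, SE 0.059, adjusted p = 0.414), and *Adam10*, which makes the first cut after ligand binding, differed by 0.063 (SE 0.041, adjusted p = 0.620), both without overlap. In the *Sox9*-Cre experiment, *Aph1c*, a subunit of gamma-secretase, had 41.6, 44.8 and 41.9 in controls and 37.1, 28.2 and 25.6 in mutants (−0.50, SE 0.21, adjusted p = 0.9999). *Poglut1*, which puts glucose on receptors, differed by 0.076 (SE 0.052, adjusted p = 0.9999), its mutants just above its controls.

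Markers of the cell types in which the pathway is known to act were measured in the same libraries. The 11 endothelial markers, summed, had a log2 ratio of mutant to control of 0.047 in the *Vangl1/2*, −0.070 in the *Dermo1*-Cre and −0.046 in the *Sox9*-Cre experiment. They overlapped between groups in the first and second of these and were lower without overlap in the *Sox9*-Cre mutants (16785 to 17071 normalized counts, controls 17337 to 17685). The 5 arterial markers, summed, were lower without overlap there as well (2710 to 2751, controls 2789 to 2930). Their sum was higher without overlap in the *Vangl1/2* mutants (3054 to 3107, controls 2594 to 3036). Taken singly, however, 4 of the 5 were lower in those mutants and 1 was higher (median log2 fold change −0.151). The part of these cells in the values of *Dll4*, *Notch1* and *Hey1* was not tested. The share of *Dll4* in the endothelial sum was 1.37% ± 0.13 (SD, n = 3) in *Vangl1/2* controls and 1.41% ± 0.055 in mutants. It was 1.35% ± 0.094 and 1.33% ± 0.15 in the *Dermo1*-Cre, and 1.39% ± 0.19 and 1.40% ± 0.081 in the *Sox9*-Cre experiment. The 5 markers of mural cells and pericytes were lower without overlap in the *Dermo1*-Cre mutants (3717 to 3817 normalized counts, controls 3898 to 4447), the experiment in which *Heyl* stood at −0.30, and the part of these cells in that value was not tested. Taken as a share of the mural sum, *Heyl* was 17.7% ± 1.36 in *Dermo1*-Cre controls and 15.9% ± 1.2 in mutants, with overlap, and 16.6% ± 0.093 and 15.5% ± 0.46 in the *Sox9*-Cre experiment, where the mural sum itself overlapped and the shares did not. *Notch3* was 59.2% ± 6.44 of the mural sum in *Vangl1/2* controls and 72.3% ± 4.57 in mutants, without overlap. The trend on exon length was not taken out of these shares. The log2 fold change of *Notch3* itself went from 0.56 to 0.19 there when it was. In the *Dermo1*-Cre and *Sox9*-Cre experiments the share of *Notch3* overlapped. The shares of *Notch1* and *Hey1* in the endothelial sum overlapped in every experiment.

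The 7 smooth muscle markers were all below 0 in the *Vangl1/2* and in the *Dermo1*-Cre experiment, with log2 ratios of their sums of −0.44 and −0.56 and overlapping groups (11392 to 16230 against 8663 to 12033, and 13692 to 19587 against 9065 to 14419). *Jag1*, as a share of that sum, was higher without overlap in the *Dermo1*-Cre mutants, at 4.55% ± 0.79 against 3.36% ± 0.25 in controls. Its own level overlapped and did not rise (−0.16), so the higher share came with the lower sum. In the other experiments the share of *Jag1* overlapped, and that of *Heyl* in the same sum overlapped in every experiment. The 8 cardiomyocyte markers were lower without overlap in the *Sox9*-Cre mutants (407 to 2979, controls 3015 to 12028), and their part in the value of *Hey2* was not tested. In the *Dermo1*-Cre experiment the log2 ratio of their sums was −2.17, with overlapping groups (448 to 1839, controls 434 to 12999). *Hey2* stood at −0.19 (SE 0.19) there. Summed macrophage markers overlapped in all 3 experiments. Of the neuroendocrine markers listed, 5 (*Calca*, *Chga*, *Insm1*, *Resp18* and *Ddc*) were summed, a choice made after the data were seen. They ran from 253 to 331 normalized counts in controls and 255 to 305 in mutants of the *Vangl1/2* experiment, and from 198 to 307 and 264 to 334 in the *Dermo1*-Cre experiment. Among the *Sox9*-Cre libraries their sum was 290 to 536 in controls and 227 to 290 in mutants, with a log2 ratio of −0.55 and all 5 log2 fold changes below 0, and their part in the values of *Hes1* (−0.087) and *Dll1* (−0.16) there was not tested.

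Over the 18 libraries, each centred on the mean of its table, the genes whose log2 levels went most closely with the receptors were *Lphn2* (Pearson correlation 0.992) and *Fat1* (0.990) for *Notch2*, *Dchs1* (0.986) and *Spen* (0.983) for *Notch3*, and *Plec* (0.974) and *Dvl3* (0.973) for *Notch1*, of 11930 genes compared. The points share library and length trend. With that trend removed, *Lphn2* (0.964) and *Dchs1* (0.957) were still the nearest genes, while the nearest to *Notch1* was *Mllt6* (0.881). Among the members, *Notch2* and *Notch3* went together (0.941, and 0.733 with the trend removed). *Hes1* was nearest to *Hes6* (0.889, and 0.623 with the trend removed) and *Scx* (0.887, and 0.665). With the trend removed its nearest gene was *Wnt5a* (0.861), the gene targeted in the *Wnt5a* experiments. Differences between mutants and controls enter these correlations, and a link between *Hes1* and *Wnt5a* was not tested. The nearest genes of *Hey1* were *C1qa* (0.906) and *Myzap* (0.895), those of *Heyl* *F2rl1* (0.853) and *Pde9a* (0.847), and those of *Jag1* *Vwf* (0.857) and *Fam129a* (0.856). Those of *Jag2* were *Npr2* (0.852) and *Lamb2* (0.837), those of *Dll1* *Fam20a* (0.843) and *Mfsd9* (0.810), and those of *Dll4* *Mex3d* (0.832) and *Tor1aip2* (0.806). Part of this went with exon length. With the trend removed, the pairs from *Hey1* to *Dll4* ran from 0.0365 (*Dll4* with *Tor1aip2*) to 0.854 (*Dll1* with *Fam20a*). *Jag2* with *Npr2* was then at 0.528 and *Notch1* with *Dvl3* at 0.531.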

How the data were processed

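RNA was extracted from mouse embryonic lungs and sequenced on Illumina HiSeq instruments. The submitters' processing notes name Trim Galore, HISAT2, featureCounts, DESeq2 and build mm10; versions, annotation and strand setting are not given in the sources used here. The deposited values are a signal, gene counts divided by a size factor per library; in 18 of 18 libraries they were whole multiples of 1 read (tolerance 0.001 reads). The deposited tables also hold the authors' log2 fold changes and p-values, which were not used. Tables were normalized separately and fitted separately with limma 3.58.1 (R 4.3.3) with a mean-variance trend on log2(value + 1), keeping genes that reached 10 normalized counts in 3 or more of 6 libraries, adjusted over all genes (threshold 0.05); differences between experiments used all 18 libraries. edgeR 4.0.16 and DESeq2 1.42.0 were run on the recovered reads as alternatives, beside TMM and upper-quartile scaling, other pseudocounts, no filter, a replicate block and leaving out each library. Exon lengths came from GENCODE M21 and covered 98.4% of names; their trend was a spline with 4 degrees of freedom. The scripts were tested on simulated data. Replicate numbers in the labels were not used for pairing. Members, pathway list and marker lists were chosen with earlier results of these data known. Text names the 10 members, the targeted genes, per experiment up to 2 pathway genes in each direction that differed most among those without overlap, and for each member the 2 genes of most similar pattern with a mean of at least 50 normalized counts in each table; *Hey2* was added after its values were seen, as were the nearest genes with the length trend removed. One gene that this rule names is not reported here.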

Additional observations from a re-analysis of the deposited data

Results flagged for a closer look

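*Maml1*, a Mastermind-like coactivator of the Notch nuclear complex, had mutants above every control in the *Vangl1/2* experiment and below every control in the *Dermo1*-Cre experiment. In the *Vangl1/2* experiment it had 1207, 1483 and 1096 normalized counts in controls and 1714, 1639 and 1637 in mutants. In the *Dermo1*-Cre experiment it had 1293, 1377 and 1248 in controls and 1184, 1207 and 1240 in mutants. The difference between the log2 fold changes was 0.518 (SE 0.124), and it did not pass limma's test (adjusted p = 0.252). In the *Sox9*-Cre experiment the groups overlapped, with 1253, 1322 and 1234 in controls and 1184, 1379 and 1311 in mutants. Groups of 3 libraries are too small for a search for single outlying samples.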

How the results depend on the processing

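Of the 530 values of single members under other settings, 498 kept their direction and their side of the threshold. In the *Vangl1/2* experiment the count of members called rose from 0 to 3 with all 18 libraries in 1 fit (*Notch1* adjusted p = 0.0389, *Notch2* 0.022, *Notch3* 0.024, from limma, an estimate of spread shared with the quieter experiments), and the count of other pathway genes from 0 to 14, where 23.1% of all genes were called. Leaving out 1 library gave 0 to 4 members and 0 to 24 pathway genes, the highest without control 2, a fit that called 43.6% of all genes. The count of members whose effect differed between experiments ran from 0 to 4, the highest again without control 2. The fit of these differences without control 2 called 32.8% of all genes against the *Dermo1*-Cre and 39.3% against the *Sox9*-Cre experiment. Without control 2 and with the length trend removed, 1 member and 6 pathway genes were called. In the *Dermo1*-Cre and *Sox9*-Cre experiments no setting called a member. The median of the members in the *Sox9*-Cre experiment was −0.023 with the length trend removed and −0.116 to −0.0212 over the fits that left out 1 library. The 3 targets were below 0 in every setting but 1, the *Vangl1/2* fit without control 2 and with the length trend removed, where *Hes1* was at 0.0138.

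The log2 fold changes that changed sign were small in the fit reported, apart from *Notch1* (0.44) and *Hes1* (−0.28) of the *Vangl1/2* experiment. In the *Vangl1/2* experiment *Jag1* became 0.00201 with TMM scaling and ran from −0.204 (without control 3) to 0.292 (without control 2). *Jag2* became −0.072 with the length trend removed and −0.00181 without control 2 in addition. With 1 library left out, *Dll1* ran from −0.0988 (without control 1) to 0.296 and *Dll4* from −0.00778 (without control 3) to 0.21, both highest without control 2. With control 2 as the only control, *Jag2* was at −0.196, *Dll1* −0.436, *Dll4* −0.123 and *Notch1* −0.0534. In the *Dermo1*-Cre experiment *Notch1* ran from −0.0403 to 0.0204 with 1 library left out. In the *Sox9*-Cre experiment *Dll4* became 0.0108 with the length trend removed and ran from −0.13 to 0.0676 with 1 library left out, and *Notch2* from −0.0162 to 0.148. Causes were not tested.

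Same-numbered controls and mutants correlated in their deviations at 0.303, 0.049 and 0.0126 (*Vangl1/2*), 0.073, −0.0732 and −0.223 (*Dermo1*-Cre) and 0.0535, 0.132 and −0.12 (*Sox9*-Cre), so the numbers were not taken as pairs. With the replicate number as a block, 0 members and 0 pathway genes were called in each experiment; with the block and the length trend removed the median of the *Sox9*-Cre experiment was −0.0232, *Dll4* there 0.0108 and *Jag2* of the *Vangl1/2* experiment −0.0716. With the length trend removed, 1 of the 2 genes of most similar pattern was kept for 3 members and 0 for the other 7. Counts of 46.5 to 96.1 limit the precision of *Dll1*.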
